A study of Oryza sativa with 36 samples.

Results

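The shoots and roots of rice seedlings were compared under the no-stress control, on 12 of the 36 Affymetrix rice arrays of the series. These are the arrays whose titles name the control, 6 of shoots, which the sample labels call leaf, and 6 of roots. In each organ 3 arrays came from PL177, which tolerates salt and was bred to F6 by combining introgressions in the IR64 background, and 3 from IR64 itself, which is moderately sensitive to salt. All 12 samples were seedlings at the 3-leaf stage, raised in Yoshida solution, to which neither NaCl nor ABA was added. The labels give 11 days of culture after germination, and the age at sampling cannot be read from them with certainty. Plants of both lines shared a box. The remaining 24 arrays came from the same 4 combinations of line and organ under salt (140 mM NaCl) or salt+ABA (140 mM NaCl with 10 µM ABA), for 4 days by the labels, and are used only where the organ difference of the control is set against theirs. The control arrays are 3 for each line and organ, described as independent biological replicates in the study's methods.

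A rice leaf captures light in photosystems embedded in the thylakoid membranes of its chloroplasts, fixes carbon dioxide with the enzyme Rubisco in the Calvin cycle, and exports sucrose. The root lives on that sucrose, takes up water, nitrogen, phosphate, silicon and metals through membrane transporters, and grows from a meristem of dividing cells. Rice is known for unusually strong silicon uptake, carried by the channel Lsi1 and the efflux transporter Lsi2, and, as a grass, for collecting iron with phytosiderophores made from nicotianamine.

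The array holds 57381 probe sets, of which 123 controls were left out and 57258 were tested. The deposited values were intensities on a linear scale, from 1 to 23039.83 on these arrays, with medians between 57.11 and 61.79 per array. Levels are given below as intensities after quantile normalization over the 12 arrays, as the lowest and highest of the 6 arrays of an organ with their median. A difference is always shoot minus root on the scale of log2(intensity + 32), so that 1 is 2-fold and differences of dim genes are understated, and 31.2% of all values were below 32. Differences, standard errors (SE) and adjusted p-values come from limma with the line as a covariate and Benjamini-Hochberg adjustment over all probe sets. A probe set was called when the difference was over 2-fold with an adjusted p below 0.05, and only called genes are described as higher or lower. Of the probe sets, 22436 could be named by 1 gene, which gave 17905 genes, each read from its brightest probe set. A level is never set against that of another gene, because probe sets differ in brightness. Probe sets that can share sequence with other genes stand behind LTP2-B, TIP2;1, GDCSH, CatB, GLO4, HAK1, HAK17, HAK22, YAB1, KS1, LEA19, RAB21, PHYA, RPL27, SAPK9, ADI1, the reductase LOC4342399, LOC4350388, RBCS, rca and PORB below, and the values of these genes are uncertain in that respect.

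The first principal component of the 12 arrays separated shoots from roots and held 85.6% of the variance, and shoot with root arrays correlated at 0.832 to 0.859 across probe sets. Within an organ the replicate number came next. PL177 and IR64 arrays of the same number and organ correlated at 0.991 to 0.995, and arrays of the same line with other numbers at 0.975 to 0.994. The 6 arrays of an organ thus paired by number across the lines, although the labels do not say what a number marks. The SE and p-values given below for single genes do not model this pairing, except where the lines are averaged. Averaging the lines within each number, 3 shoot against 3 root values, left 8916 calls for the organ difference, of which 8913 were among the 9205 described next. PL177 shoot array 2 stood apart from the other shoot arrays in genes that are high in roots: among the 50 genes with the largest difference towards roots it was the highest shoot array for 33, with a median intensity of 63.4 against 32 to 40 on the other shoot arrays. Among the 50 genes highest in shoots, IR64 root array 2 was the highest root array for 26, with a median of 41.7 against 22.5 to 33.7. The part of material from the other organ in these readings was not tested. Without PL177 shoot array 2, 9233 probe sets were called, 8963 of the main calls were kept, and all 50 of the genes highest in roots were still called with a median difference of -5.78 in place of -5.75. The 50 were picked as the largest differences on these same arrays, so that leaving out 1 array could hardly end their calls.

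**Figure D1:**
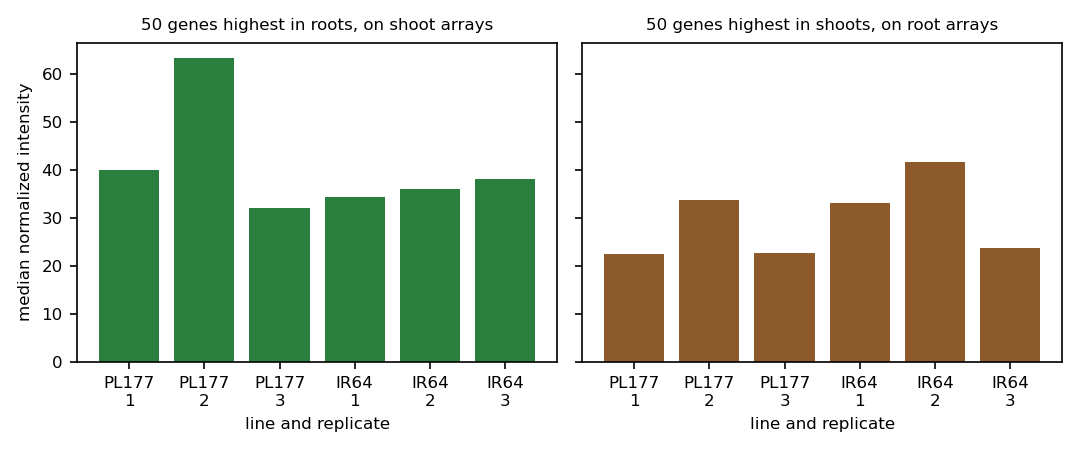
Median normalized intensity of the 50 genes with the largest difference towards roots on each shoot array (left) and of the 50 with the largest difference towards shoots on each root array (right), labelled by line and replicate number, with 1 bar per array and no error bar. PL177 shoot array 2 stood at 63.4 against 32 to 40 on the other shoot arrays, and IR64 root array 2 at 41.7 against 22.5 to 33.7 on the other root arrays.

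The labels of the organs were checked against markers. The marker names chosen were 10 for leaf and 13 for root. Of these, 6 leaf names, which gave 7 genes, and 8 root genes could be matched, and the others were not checked. Of 7 genes that mark leaf mesophyll, 5 were higher in shoots: RBCS (the small subunit of Rubisco), rca (Rubisco activase), PORB, GLO1 and GLK1. RBCS read 20227 to 21460.3 in shoots (median 20855) and 1651 to 4518 in roots (median 3215). CAB2R, a chlorophyll a/b-binding protein, read 15088 to 16777 in shoots (median 15460.1) and 5724 to 10662 in roots (median 8235), and its difference of 0.96 was under 2-fold although the organs did not overlap. The second Rubisco gene, RBCS1, was dim throughout, with a highest reading of 8.44. Of 8 genes that mark roots, 6 were higher in roots: Lsi1 (listed as NIP2;1), Lsi2, NAS1, NAS2, AMT1;2 and NRAMP5. NAAT1, which converts nicotianamine on the way to phytosiderophores, read 2404 to 3513 in shoots (median 3194) and 1264 to 2432 in roots (median 1707), and IRT1, an iron transporter, 34 to 68.4 in shoots (median 60.6) and 27.4 to 55.1 in roots (median 40.5), with overlapping organs in both and no call. The summed intensity of the leaf markers was 66851 to 73943 on shoot arrays and 10673 to 21447 on root arrays, and that of the root markers 34097 to 40787 on root arrays and 3499 to 4758 on shoot arrays, so that leaf marker signal was present on every root array. The samples are whole organs, in which fewer cells of a type and less RNA per cell cannot be told apart.

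Shoots and roots differed at 9205 probe sets, 16.1% of those tested. Of these, 4672 were higher in shoots (8.16%) and 4533 in roots (7.92%). Over genes, 5697 of 17905 were called (31.8%), with 2677 higher in shoots (15%) and 3020 in roots (16.9%), and the median difference of all genes was -0.18. The counts of every gene list below are to be read beside these shares of all genes. More than 16-fold separated the organs at 361 probe sets higher in shoots and 224 higher in roots, and more than 64-fold at 22 and 30. The shoot and root arrays did not overlap at 8799 of the called probe sets (95.6%) and at 22917 of all probe sets (40.0%). Separate organs are thus the rule among the called genes named below and add little to their calls. Of the calls higher in shoots, 758 had a mean root intensity below 32, and of those higher in roots, 753 had a mean shoot intensity below 32, so that their folds depend on the value added before log2. The even split rests on the scaling: without quantile normalization 5180 calls were higher in shoots and 3709 in roots, 58.3% in shoots, while 50.8% were in shoots in the main fit. Scaled on 14 hybridisation control probe sets, whose mean log2 signal was 0.61 higher in shoots, the median difference moved to -0.60 and 3299 calls were higher in shoots and 9959 in roots (24.9% in shoots), with 8407 of the main calls over 2-fold in the same direction beyond that shift. The 3′ over 5′ signal (log2) of control genes, a sign of RNA quality, differed between the organs, but not in 1 direction. For EF1A it was -1.60 to -1.09 in shoots and lower in roots, -2.52 to -1.62, without overlap. For actin it was 2.62 to 3.26 in shoots (median 2.98) and 2.99 to 3.70 in roots (median 3.40). For GAPDH it was 0.13 to 0.79 in shoots (median 0.46) and 0.39 to 0.85 in roots (median 0.68). The medians of both were higher in roots, but the organs overlapped. The part of RNA quality in the organ differences was not tested.

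The genes with the largest differences had low intensities in 1 organ and high ones in the other. PIP2;7, an aquaporin of the plasma membrane, read 5943 to 9107 in shoots (median 7910) and 22.7 to 81.4 in roots (median 31.8), a difference of 6.75 (SE 0.19, adjusted p = 7.79e-11 from limma). All 6 shoot arrays lay more than an order of magnitude above all root arrays. LTP2-B, a lipid transfer protein, read 3907 to 12757 in shoots (median 7447) and 28.5 to 67.4 in roots (median 32.8), a difference of 6.72 (SE 0.29, adjusted p = 2.24e-09 from limma). Its shoot arrays agreed by replicate number across the lines, with 12030.4 and 12757 for number 1, 7525 and 7369 for number 2, and 4498 and 3907 for number 3 in PL177 and IR64, and no shoot array came near the roots. GLK2, a Golden2-like transcription factor of chloroplast development, read 4505 to 6295 in shoots (median 5537) and 26.6 to 63.8 in roots (median 33.9), a difference of 6.27 (SE 0.12, adjusted p = 5.69e-12 from limma). The other 12 of the 15 largest differences towards shoots belong to genes that the annotation used here gives only by number, from 6.23 for LOC4347709 to 7.38 for LOC4352346, which read 10501 to 11739 in shoots (median 11217) and 15.9 to 76.1 in roots (median 33.3).

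Towards roots, Lsi2, the silicon efflux transporter, had the largest difference of all genes, -7.43 (SE 0.18, adjusted p = 2.87e-11 from limma), with 8419 to 9855 in roots (median 9426) and 10.4 to 77.7 in shoots (median 15.9). The highest shoot reading, 77.7, came from PL177 array 2, and the other 5 shoot arrays lay at or below 19.6. TIP2;1, an aquaporin of the vacuole membrane, read 8982 to 12422 in roots (median 10992) and 14.4 to 427 in shoots (median 16), a difference of -7.17 (SE 0.49, adjusted p = 1.35e-07 from limma). PL177 shoot array 2 again gave the highest value, 427, while the other shoot arrays read 14.4 to 38.5. MT4C, a metallothionein, read 19257 to 21460.3 in roots (median 19742) and 123 to 269.9 in shoots (median 152), a difference of -6.64 (SE 0.14, adjusted p = 7.66e-12 from limma). Adh2, an alcohol dehydrogenase of ethanol fermentation, read 7065 to 9142 in roots (median 7864) and 61.7 to 131 in shoots (median 69.9), a difference of -6.22 (SE 0.13, adjusted p = 7.87e-12 from limma). All shoot readings of both genes lay far below all root readings. The other 11 of the 15 are known here only by number, from -6.37 for LOC4335846 to -7.30 for LOC4349293. These 30 genes were picked among called genes whose organs did not overlap.

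**Figure D2:**
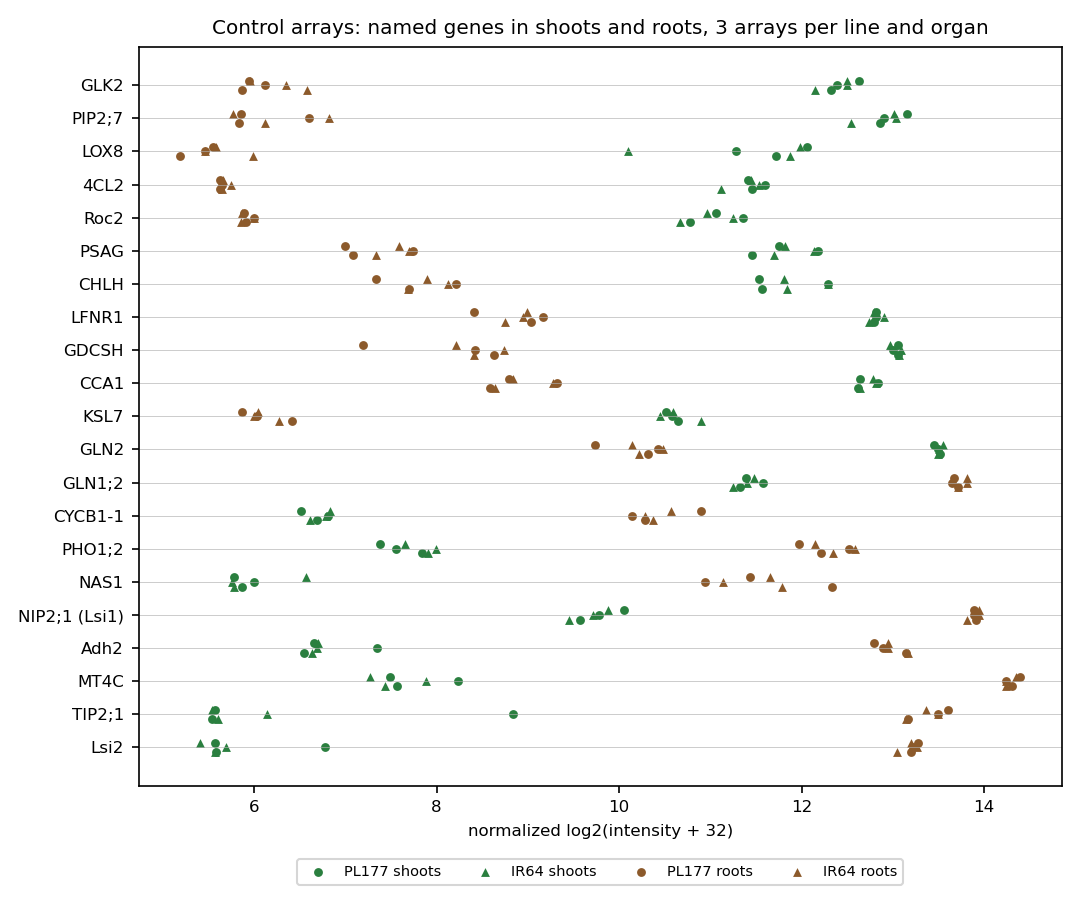
Normalized log2(intensity + 32) of 21 named genes on the 12 control arrays, with green for shoots, brown for roots, circles for PL177 and triangles for IR64, 3 arrays each and 1 point per array. The top row is GLK2, higher in shoots with a difference of 6.27, and the bottom row is Lsi2, higher in roots with -7.43. Rows are not ordered by the size of the difference, and PIP2;7 had the largest towards shoots shown, 6.75. The single shoot point of TIP2;1 near 8.8 is PL177 array 2.

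Most chloroplast genes were higher in shoots. In 4 lists (photosystem and light-harvesting proteins, Rubisco and carbon fixation, chlorophyll synthesis, and plastid proteases and chaperones), 10 of 11, 11 of 14, 14 of 15 and 14 of 24 genes were higher in shoots and 0 in roots, against 15% and 16.9% of all genes. At an unadjusted p below 0.05 in limma and any fold, 0, 1, 0 and 2 of them were higher in roots. Their median differences were 2.53, 2.42, 2.12 and 1.64. PSAG, a subunit of photosystem I, read 2781 to 4609 in shoots (median 3498) and 95.9 to 182 in roots (median 145), a difference of 4.43 (SE 0.16, adjusted p = 4.3e-10 from limma). PSB28 of photosystem II had a difference of 3.65, with root arrays at 159 to 294. LHCP, a light-harvesting chlorophyll a/b protein, read 14306 to 15999 in shoots (median 15348) and 754 to 2491 in roots (median 1503), so that its root arrays were far from dark. For all of them the lowest shoot array was above the highest root array. CHLH, the subunit of magnesium chelatase that binds the porphyrin, read 2932 to 4953 in shoots (median 3589) and 129.9 to 265 in roots (median 190), a difference of 4.06 (SE 0.17, adjusted p = 2.13e-09 from limma). CHLP, the geranylgeranyl reductase that makes the chlorophyll side chain, had a difference of 3.27, and PORA, a protochlorophyllide oxidoreductase, one of 3.05. Trxf, a thioredoxin f that activates Calvin cycle enzymes in light, read 4930.3 to 7262 in shoots (median 5649.9) and 271 to 419 in roots (median 336). EGY3, of a family of plastid membrane proteases, read 627 to 1528 in shoots (median 1164) and 7.04 to 12 in roots (median 10.5), a difference of 4.72 (SE 0.19, adjusted p = 1.15e-09 from limma), and was close to dark in every root array. CLPD1, a Clp chaperone of the plastid, varied more in shoots, from 2338 to 7844, with the number 2 arrays of both lines lowest, and stayed at 445 to 636 in roots. Root levels of these genes were uneven between arrays: the root array numbered 2 was the highest of its line in both lines for 7 of the 11 photosystem genes and 10 of the 15 genes of chlorophyll synthesis, against 24.6% of all genes. In shoots too the array numbered 2 was the highest in both lines for 8 of the 11 photosystem genes, against 26.8% of all genes, but for 3 of the 15 genes of chlorophyll synthesis. The part of leaf material in the root levels was not tested.

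Photorespiration, the salvage of the product that Rubisco makes with oxygen, split between the organs, with 5 of 9 genes higher in shoots and 3 in roots. GDCSH, the H protein of glycine decarboxylase, read 7962 to 8692 in shoots (median 8481) and 114 to 396 in roots (median 309), a difference of 4.77 (SE 0.21, adjusted p = 2.85e-09 from limma). GLO1, a glycolate oxidase, read 10235 to 10707 in shoots (median 10382) and 1171 to 2362 in roots (median 1842). Its relatives went the other way: GLO3 read 2707 to 3824 in roots (median 3114) and 269.8 to 374 in shoots (median 313), a difference of -3.23 (SE 0.09, adjusted p = 8.7e-11 from limma), and GLO4 had a difference of -1.32. CatB, a catalase, was higher in roots as well, at 9187 to 11517 against 2682 to 3059. None of the 5 genes overlapped between organs, like 95.6% of the called probe sets.

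Enzymes with an isoform for each organ were followed one by one. Ferredoxin carries electrons from photosystem I in leaves, and from NADPH in root plastids, through a ferredoxin-NADP reductase. ADI1, a ferredoxin, read 11634 to 14579 in shoots (median 13194) and 983 to 2634 in roots (median 1789.8), a difference of 2.86 (SE 0.20, adjusted p = 1.57e-07 from limma). The reductase LFNR1 read 6786 to 7608 in shoots (median 7108) and 307 to 540.3 in roots (median 469), a difference of 3.93 (SE 0.11, adjusted p = 6.79e-11 from limma), and the reductase LOC4334338 read 2260.4 to 3579 in roots (median 3115) and 775 to 914 in shoots (median 809.9), a difference of -1.82 (SE 0.10, adjusted p = 1.45e-08 from limma). Another reductase, LOC4342399, read 1734 to 1974 in shoots (median 1769) and 1571 to 1882 in roots (median 1637), with overlapping organs and a difference of 0.09 that was not called. Glutamine synthetase, which fixes ammonium, showed the same kind of split. GLN2, the plastid form, read 11159 to 11929 in shoots (median 11539) and 823 to 1400.2 in roots (median 1202), a difference of 3.28 (SE 0.11, adjusted p = 2.01e-10 from limma). GLN1;2, a cytosolic form, read 12757 to 14392 in roots (median 13421) and 2402 to 3027 in shoots (median 2666), a difference of -2.32 (SE 0.06, adjusted p = 3.32e-11 from limma). GLN1;1 had a difference of -0.96 with separate organs but under 2-fold, and GLN1;3 was dim in both, with a highest reading of 36.7. Both glutamate synthases measured, the ferredoxin-dependent Fd-GOGAT and GLT2, were higher in shoots, by 1.44 and 2.39.

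Nitrogen genes as a whole were divided evenly, with 5 of 24 higher in shoots and 5 in roots, against 15% and 16.9% of all genes. Their median difference of -0.08 changed sign with the scaling. NIA1, a nitrate reductase, read 4590.4 to 7744 in shoots (median 5711) and 756 to 1478 in roots (median 1116), a difference of 2.41 (SE 0.16, adjusted p = 8.1e-08 from limma). AMT1;2, an ammonium transporter, read 1338 to 2183 in roots (median 1738) and 47.7 to 103 in shoots (median 81.3), a difference of -3.98 (SE 0.14, adjusted p = 4.05e-10 from limma). The first was higher in every shoot array and the second in every root array. ALN, the allantoinase of ureide breakdown, was higher in shoots by 2.12, and GDH1, a glutamate dehydrogenase, in roots, with a difference of -2.20.

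Transporters of metals and silicon leaned to roots, with 19 of 36 genes higher in roots and 4 in shoots (median difference -1.02). Lsi1, the silicon influx channel, read 14392 to 15763 in roots (median 15279.7) and 669 to 1029 in shoots (median 826), a difference of -4.16 (SE 0.09, adjusted p = 8.78e-12 from limma), next to Lsi2 described above. Nrat1, an aluminium transporter of the plasma membrane, read 3846 to 5765 in roots (median 4786) and 23.8 to 82.7 in shoots (median 32.6), a difference of -6.11 (SE 0.16, adjusted p = 5.26e-11 from limma). NRAMP5, which takes up manganese and cadmium, read 1324 to 2212 in roots (median 1609.5) and 75.5 to 167 in shoots (median 116). In each the organs were far apart. The annotation gives the name ZIP1 to 2 genes, which took opposite sides. LOC4326394 read 7180 to 9019 in roots (median 7998) and 95.8 to 171 in shoots (median 107), a difference of -5.80, whereas LOC4342782 read 302 to 708 in shoots (median 465) and 32 to 62.7 in roots (median 49.6), a difference of 2.60. NRAMP4 and the vacuolar exchanger CAX1a were among the 4 higher in shoots, with 2.57 and 1.83. Among 26 genes of iron and phytosiderophores 4 were higher in roots and 2 in shoots, against 16.9% and 15% of all genes. NAS1, a nicotianamine synthase, read 1936 to 5133 in roots (median 2959) and 22 to 62.9 in shoots (median 24.8), a difference of -5.59 (SE 0.23, adjusted p = 1.42e-09 from limma). NAS2 had a difference of -5.09. YSL15, which takes up iron-phytosiderophore, read 729.6 to 2444 in roots (median 1715) and 69.3 to 155 in shoots (median 90.4), lowest in roots on IR64 array 1. VIT1, a vacuolar iron transporter, was higher in shoots by 3.25, and the call of VIT2 (1.06) was lost without any 1 of 4 arrays.

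Phosphate genes gave few calls, 2 of 22 higher in shoots and 3 in roots, but these included PHO1;2, which loads phosphate into the xylem, at 3981 to 6109.8 in roots (median 4944) and 134 to 223 in shoots (median 183), a difference of -4.57 (SE 0.12, adjusted p = 3.32e-11 from limma). Pht1;2, a phosphate transporter, read 442 to 923 in roots (median 745) and 27.1 to 35.2 in shoots (median 29.1). PHO1;3 went the other way, with 1.99. For potassium, 6 of 29 genes were higher in shoots and 7 in roots. The shares of all genes beside these phosphate and potassium counts are 15% in shoots and 16.9% in roots. HAK27, a potassium transporter, read 898 to 1169 in shoots (median 1073) and 20.6 to 27.4 in roots (median 22.6), a difference of 4.29 (SE 0.06, adjusted p = 1.06e-12 from limma). HAK22 and HAK17 were also higher in shoots, by 4.14 and 3.79. HAK1, known for high-affinity potassium uptake, read 4158 to 5923 in roots (median 4755) and 803 to 1676 in shoots (median 1346), a difference of -1.94 (SE 0.17, adjusted p = 1.2e-06 from limma), and HAK12 had a difference of -2.15. CIPK23, a kinase that activates potassium uptake, was higher in roots too, with -2.05, while CIPK5, CIPK25 and CIPK3 of the same family were higher in shoots, with 4.06, 3.73 and 3.24.

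Aquaporins, the water channels, were higher in roots in 12 of 25 cases and in shoots in 2, and 11 were not called. PIP2;4 read 1941 to 3208 in roots (median 2522) and 44.9 to 60.3 in shoots (median 52.3), a difference of -4.91 (SE 0.12, adjusted p = 2.87e-11 from limma), and PIP2;5 had a difference of -4.72. The 2 exceptions were PIP2;7, described above, and NIP1;1, which read 487 to 1757 in shoots (median 908) and 50 to 79.7 in roots (median 64.1). All of these kept the organs apart, like 95.6% of the called probe sets.

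Sugar genes fell on both sides, 6 of 32 in shoots and 6 in roots, against 15% and 16.9% of all genes. SUT1, a sucrose transporter, read 705 to 968 in shoots (median 761) and 111 to 171 in roots (median 118), a difference of 2.36 (SE 0.11, adjusted p = 4.29e-09 from limma). SWEET1b, of the SWEET sugar transporters, had a difference of 4.64. CIN2, a cell wall invertase that cleaves sucrose outside the cell, read 1265 to 2138 in roots (median 1524) and 9.06 to 25.5 in shoots (median 16.1), a difference of -5.09 (SE 0.12, adjusted p = 2.49e-11 from limma). SUS2, a sucrose synthase, read 8247 to 8982 in roots (median 8536) and 1463 to 1858 in shoots (median 1772). SUS1, another, was higher in every root array, but its shoot arrays spread widely, with 2772 and 3474 on the arrays numbered 1 against 357 and 429 on those numbered 3. In starch synthesis SS2, a starch synthase, read 1235 to 1842 in shoots (median 1371) and 70.2 to 119 in roots (median 93.1), and AGPS2, a subunit of ADP-glucose pyrophosphorylase, had a difference of 2.15. Of 20 genes of mitochondrial and cytosolic respiration, limma called 13 higher in roots and 0 in shoots, and at an unadjusted p below 0.05 it was 19 and 0. Their median difference was -1.20, and -0.87 without quantile normalization. SCS-beta, of succinyl-CoA ligase, read 6841 to 8195 in roots (median 7994) and 1073 to 1378 in shoots (median 1281), a difference of -2.60 (SE 0.06, adjusted p = 2.41e-11 from limma). SDH1 of succinate dehydrogenase had a difference of -1.73. In fermentation, PDC2, a pyruvate decarboxylase, was higher in roots with Adh2, at 4173 to 5821 against 1109 to 1558. PDC1 was called as well, although its organs overlapped.

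Cell division genes were called towards roots. Of 47 genes of the cell cycle and DNA replication, limma called 25 higher in roots and 0 in shoots, and 39 and 3 at an unadjusted p below 0.05, with a median difference of -1.09. CYCB1-1, a mitotic cyclin, read 1095 to 1874 in roots (median 1253) and 59.7 to 81.7 in shoots (median 75), a difference of -3.71 (SE 0.12, adjusted p = 1.87e-10 from limma). CYCB2-2 had a difference of -3.75, and MCM2, a subunit of the replicative helicase, one of -3.25. No shoot array of the 3 genes reached the lowest root array, and 95.6% of the called probe sets had separate organs too. Of 14 tubulins and actins 7 were higher in roots, TUB2 by the most, at 1709 to 2999 in roots (median 2615) and 161 to 359 in shoots (median 243). Ribosomal proteins gave 3 calls in roots and 2 in shoots of 22, while at an unadjusted p below 0.05 in limma it was 19 and 3. Their median difference was -0.74, and -0.36 without quantile normalization. The 3 calls in roots (RPL30, RPS15 and RPS4) were lost without quantile normalization. RPL18 and RPL27 were higher in shoots, with 2.73 and 2.52.

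**Figure D3:**
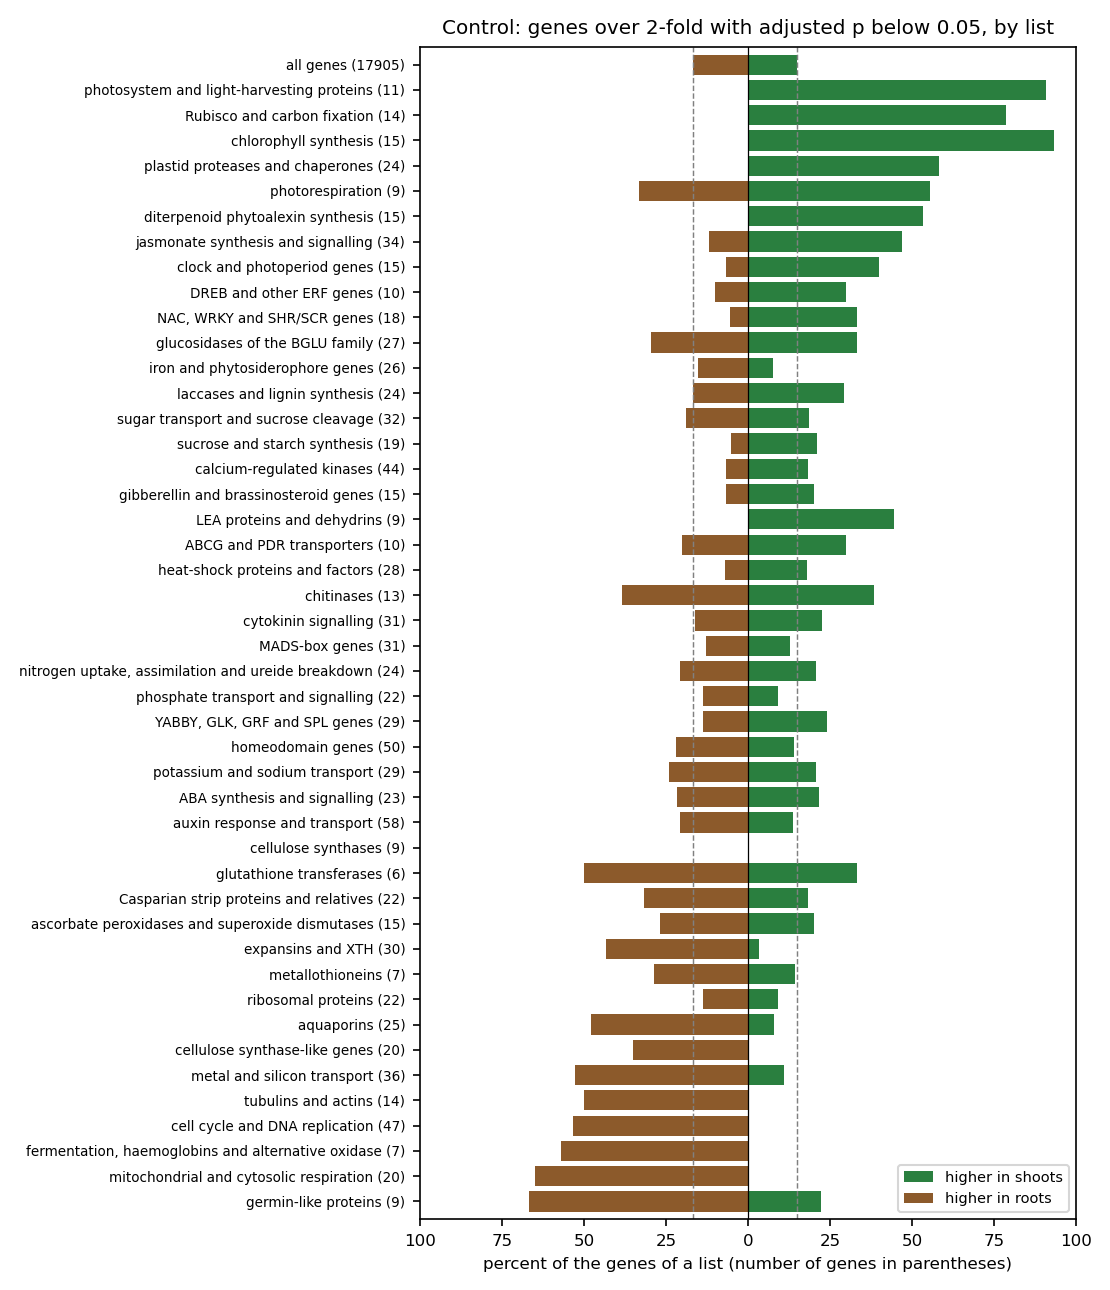
Percent of the genes of each of 45 lists that were called higher in shoots (green, to the right) and higher in roots (brown, to the left), with the number of genes in parentheses, ordered by median difference, and dashed lines at the shares of all genes, 15% and 16.9%. Chlorophyll synthesis had 14 of 15 genes higher in shoots, germin-like proteins 6 of 9 higher in roots, and the 9 cellulose synthases no call.

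Wall genes differed by family. Of 30 expansins and xyloglucan hydrolases, which loosen cell walls, 13 were higher in roots and 1 in shoots, EXPB3. EXPB18 read 539.6 to 2040.4 in roots (median 1162) and 4.48 to 21.5 in shoots (median 8), a difference of -4.86 (SE 0.27, adjusted p = 2.47e-08 from limma). Of 9 cellulose synthases 0 were called by limma, while at an unadjusted p below 0.05 it was 4 higher in roots and 1 in shoots, and their median of -0.29 changed sign with the scaling, whereas 7 of 20 cellulose synthase-like genes were higher in roots, CSLC3 with -3.59. Laccases and lignin genes were split, 7 of 24 higher in shoots and 4 in roots. The genes named here have the largest differences of the list in each direction, so that paralogues on opposite sides follow from that choice. 4CL2, a 4-coumarate:CoA ligase, read 2195 to 3063 in shoots (median 2773) and 17.4 to 21.6 in roots (median 18.2), a difference of 5.77 (SE 0.07, adjusted p = 4.23e-13 from limma), and 4CL1 read 2265 to 2714 in roots (median 2573) and 329.6 to 483 in shoots (median 416), a difference of -2.52 (SE 0.08, adjusted p = 1.51e-10 from limma). CAD3, a cinnamyl alcohol dehydrogenase, had a difference of 5.61 and CAD8A one of -4.65. LAC20, a laccase, was higher in shoots but ranged from 228 to 2249 there, with the number 1 arrays of both lines highest. Casparian strip proteins and their relatives gave 7 calls of 22 in roots and 4 in shoots, against 16.9% and 15% of all genes. Of 9 germin-like proteins of the cell wall, 6 were higher in roots and 2 in shoots. GER4 read 10781 to 12882 in roots (median 11324) and 51.8 to 958 in shoots (median 370.5), and GER5 3010.5 to 10212 in shoots (median 5108) and 79.3 to 95.4 in roots (median 88.5), a difference of 5.49 (SE 0.28, adjusted p = 1.17e-08 from limma). GER5 was another gene whose shoot arrays agreed by number, 9142 and 10212 for number 1 against 3184 and 3010.5 for number 3.

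Phytoalexin and jasmonate genes were called more often in shoots, while other defence families were split. Of 15 genes of diterpenoid phytoalexin synthesis, limma called 8 higher in shoots and 0 in roots (9 and 1 at an unadjusted p below 0.05), with a median difference of 1.01. KSL7, a diterpene synthase, read 1366 to 1879 in shoots (median 1503) and 26.5 to 53.5 in roots (median 33.8), a difference of 4.51 (SE 0.10, adjusted p = 1.39e-11 from limma). The cytochromes P450 CYP71Z6 and CYP71Z7 had differences of 3.61 and 2.98. Of 34 jasmonate genes 16 were higher in shoots and 4 in roots. LOX8, a lipoxygenase, read 1063 to 4238 in shoots (median 3523) and 4.62 to 31.5 in roots (median 13.5), a difference of 5.96 (SE 0.30, adjusted p = 9.86e-09 from limma), lowest among shoots on the number 2 arrays. JAZ9, a repressor of jasmonate signalling, read 2327 to 5334 in shoots (median 4233) and 52 to 218 in roots (median 105). AOS4, an allene oxide synthase, went the other way at 1221 to 2688 in roots (median 2311) and 23.9 to 32.2 in shoots (median 28.9), a difference of -5.13 (SE 0.17, adjusted p = 2.2e-10 from limma). Chitinases were split, 5 of 13 in each direction, Cht6 and Cht11 in shoots with 3.79 and 3.62 and Cht1 in roots with -4.06. APX8, an ascorbate peroxidase of the thylakoid, read 4977 to 6158 in shoots (median 5909) and 296 to 541 in roots (median 458), and APX7, of the chloroplast stroma, read 2156 to 3142 in roots (median 2426) and 587 to 992 in shoots (median 815). Both were named for being among the largest differences of their list in each direction, so that their opposite sides follow from that choice. Glucosidases of the BGLU family were among the most often called, 9 of 27 in shoots and 8 in roots, and had no common side.

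Of the transcription factors, 7 of 50 homeodomain genes were higher in shoots and 11 in roots, 4 of 31 MADS-box genes in each, and 6 of 18 NAC, WRKY and SHR/SCR genes in shoots and 1 in roots. Over all genes the shares were 15% in shoots and 16.9% in roots. YAB1 and YAB2, YABBY factors of lateral organs, read at most 32.2 and 18.5 in roots and at least 645 and 559.8 in shoots. Roc2, a homeodomain factor of the epidermis, read 1592 to 2599.7 in shoots (median 2033) and 25.9 to 31.8 in roots (median 27.9), a difference of 5.09 (SE 0.11, adjusted p = 9.67e-12 from limma), and ROC1 had a difference of 4.65. HOS9, a homeobox gene, read 749.8 to 933 in roots (median 849.9) and 14 to 19.8 in shoots (median 18), a difference of -4.14 (SE 0.06, adjusted p = 1.06e-12 from limma). SHR1, which patterns the ground tissue of roots, read 383 to 488 in roots (median 450.4) and 19.1 to 30.5 in shoots (median 26.9). MADS27 was higher in roots with -4.30, and MADS57 in shoots with 2.78. GLK1, the second Golden2-like gene, read 2258 to 4623 in shoots (median 2492) and 597 to 825 in roots (median 663), highest on the number 2 arrays of both lines. WRKY76 was higher in shoots, at 2219.8 to 4675 in shoots (median 3516) and 87.5 to 255 in roots (median 129.7).

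Hormone genes had no common side. Of 58 auxin genes 8 were higher in shoots and 12 in roots, and of 31 cytokinin genes 7 and 5, shares close to those of all genes. PIN2, an auxin efflux carrier, read 258 to 519 in roots (median 425) and 21.4 to 28.7 in shoots (median 23.9), a difference of -2.91 (SE 0.16, adjusted p = 2.23e-08 from limma), and PIN5a had one of 2.58. GH3-2, which conjugates auxin, had a difference of -3.26. In gibberellin synthesis CPS1 and KS1 were higher in shoots, with 2.85 and 1.82, and GA20OX3 in roots, with -2.0. CKX4 and CKX11, cytokinin oxidases, had 2.81 and -2.96. In ABA signalling 5 of 23 genes were higher in each organ, against 15% of all genes in shoots and 16.9% in roots. PP2C30, a phosphatase 2C, read 2894 to 4442 in shoots (median 3434) and 189.7 to 336 in roots (median 224), while the kinases SAPK3 and SAPK4 were higher in roots with -1.68 and -1.67. Of 15 clock and photoperiod genes 6 were higher in shoots and 1 in roots. CCA1, a morning gene of the circadian clock, read 6262 to 7262 in shoots (median 6689) and 352 to 609 in roots (median 419), a difference of 3.81 (SE 0.13, adjusted p = 3.46e-10 from limma). PHYA, a photoreceptor of the phytochrome family, was higher in roots, with 3745 to 4569.6 in roots (median 4131) and 853 to 1019 in shoots (median 958). In turn phyC was higher in shoots, with 1.59. The hours of sampling were not found in the sources at hand.

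Stress genes known from cold and drought were called with a wide spread. DREB1A, a factor of cold response, read 3597 to 5993 in shoots. In roots it read 675 in PL177 and 1256 in IR64 on the arrays numbered 2 and 164 to 205 on the other 4. DREB1B and DREB1G gave the same picture, with root arrays numbered 2 at 748 and 1576 and at 1299.5 and 1623, so that the organs overlapped, and all other root arrays at or below 120.4 and 82.9. Their differences were 3.38 (SE 0.76, adjusted p = 0.00233 from limma) and 3.51 (SE 0.85, adjusted p = 0.00367 from limma), and with the lines averaged the second had an adjusted p of 0.0501. Of 9 dehydrins and other LEA proteins, limma called 4 higher in shoots, LEA19 with 2.35, and 0 in roots (4 and 4 at an unadjusted p below 0.05). RAB21, a dehydrin, overlapped between the organs, and its adjusted p with the lines averaged was 0.0639.

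The organ difference was then taken in each line. In PL177, 9086 probe sets were called (15.9%), and in IR64, 8925 (15.6%). Of the calls, 8277 were made in both lines, 91.1% of the PL177 calls and 92.7% of the IR64 calls, all in the same direction. The median size of the disagreement between the lines over all probe sets was 0.0781. The organ difference itself differed between the lines at 9 probe sets (0.0157%), while 1167 had an unadjusted p below 0.05 (2.04% of all). That fit does not model the pairing by number, and 2.04% is below the share that a threshold of 0.05 gives by chance. With the replicate number within an organ as a block, which pairs the lines, 23 were called, including all 9.

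LOC4339940 differed the most. Its PL177 shoot arrays read 1075, 1213 and 1346 and its IR64 shoot arrays 45.0, 46.4 and 57.7, while all root arrays lay between 16.2 and 22.2. Its organ difference was 4.57 for PL177 against 0.70 for IR64, a gap of 3.87 (SE 0.13, adjusted p = 1.59e-06 from limma). LOC4341335 was the reverse, with IR64 shoots at 953, 1251 and 1472, PL177 shoots at 36.1, 56.5 and 95.5, and roots of both lines at 30.3 to 72.3, a difference of -3.50 (SE 0.35, adjusted p = 0.01 from limma). LOC4337920 was dim in shoots of both lines and in PL177 roots, where its highest value was 30.7, and read 119, 134 and 143 in IR64 roots (1.48, SE 0.12, adjusted p = 0.00335 from limma). LOC4334975 was higher in shoots of both lines, by 2.62 in PL177 and 1.54 in IR64. Its probe set can share sequence with other genes. A second probe set of LOC4334975 had a gap of 1.1 between the lines and was not called in the main fit (adjusted p = 0.0743 from limma). The remaining 5 are probe sets with no gene named here. LOC4339940, LOC4337920 and 2 of the unnamed probe sets kept their call in every fit that left out 1 array, LOC4341335 lost it in 4 such fits, and LOC4334975 lost it without PL177 root array 1. The count was 4 without PL177 root array 1 and 5 without IR64 shoot array 3.

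**Figure D4:**
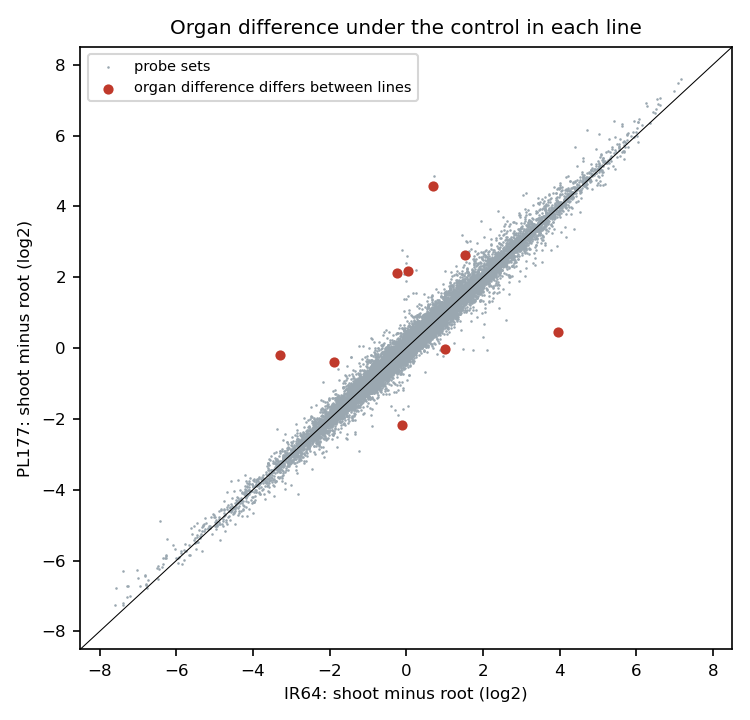
Shoot minus root difference (log2) of each probe set under the control in IR64 (horizontal) and PL177 (vertical), with the diagonal of equal differences and the 9 probe sets whose organ difference differed between the lines in red. Most probe sets lie along the diagonal, and the red point at 0.70 and 4.57 is LOC4339940.

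Last, the organ difference of the control was set against that under salt and under salt+ABA in a fit over all 36 arrays. Both contrasts use the same control arrays, so they are not independent of each other. In that fit 9255 probe sets differed between organs under the control (16.2%), 8153 under salt (14.2%) and 10021 under salt+ABA (17.5%). Of the control calls, 6632 were also called under salt, 71.7% of the control and 81.3% of the salt calls, with 23 in the opposite direction, and 7745 under salt+ABA, 83.7% of the control and 77.3% of the salt+ABA calls, with 33 in the opposite direction. The organ difference itself had changed under salt at 2059 probe sets (3.60%) and under salt+ABA at 1497 (2.61%). Over genes, 2.85% moved towards shoots and 4.31% towards roots under salt, and 2.04% and 2.91% under salt+ABA. Of the 2059 changes under salt, 1154 made a called control difference smaller, 192 made one larger and 713 were not called under the control. Of the 1497 under salt+ABA these were 548, 437 and 512. The control arrays made those calls and also enter each change, which by itself favours smaller differences. No conclusion is drawn from this split.

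Photosystem genes kept a median above 0 under both treatments. The median difference of the photosystem list was 2.51 under the control, 1.67 under salt and 3.14 under salt+ABA in this fit, and 4 of its 11 genes moved towards roots under salt and 2 towards shoots under salt+ABA. LHCP went from 3.30 to 1.71 under salt (adjusted p of the change 0.000452 from limma) and 4.37 under salt+ABA (0.0131). Of the Rubisco list, 5 of 14 genes moved towards shoots under salt+ABA and 0 under salt, and LFNR1 went from 3.88 to 5.79. Phytoalexin genes moved towards roots, with medians of 1.03, 0.21 and -0.57, and 6 and 9 of 15 genes moving towards roots under salt and salt+ABA. CYP71Z7 had differences of 2.97, 0.42 and -2.49 in the same order. Of the LEA proteins, 4 of 9 moved towards shoots under salt and 5 of 9 towards roots under salt+ABA. The difference between the salt and salt+ABA contrasts was not tested.

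The largest changes lay in single genes. SWEET12, a SWEET transporter, was dim in both organs under the control, at 8.73 to 16.9 in shoots and 11.5 to 18.2 in roots, and read 508 to 1686 in roots under salt with shoots at 12.2 to 15.4. Its organ difference went from -0.03 to -4.26 (change -4.24, SE 0.12, adjusted p = 1.43e-19 from limma). PBZ1, a pathogenesis-related protein, read 4557 to 7139.7 in shoots and 83.0 to 273 in roots under the control. Under salt+ABA its shoots read 1321 to 2402 and its roots 2638 to 4231, and the organ difference went from 5.19 to -0.93 (change -6.12, SE 0.36, adjusted p = 1.58e-12 from limma). The shoots of PBZ1 thus lay above its roots under the control and below them under salt+ABA. LAC19, a laccase, read up to 233 in shoots and 13.8 in roots under the control, and 417 to 548 in roots under salt+ABA, and its difference went from 2.31 to -3.35. LOC4344505 read 805 to 2007 in control roots against 13.9 to 26.4 in shoots, and under salt its roots read 12.9 to 18.5. JAZ9 went from 4.83 to 0.61 under salt (change -4.22, SE 0.51, adjusted p = 8.66e-07 from limma), with shoots at 65.2 to 854 in place of 2299.6 to 5261. Wide control differences moved to different degrees. LOC4351693 had 6.58, 5.52 and 4.57 under the control, salt and salt+ABA, and both changes were called. PIP2;7 had 6.73, 6.96 and 7.32, and Lsi2 -7.42, -7.37 and -7.07 under the control, salt and salt+ABA, and neither change was called.

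**Figure D5:**
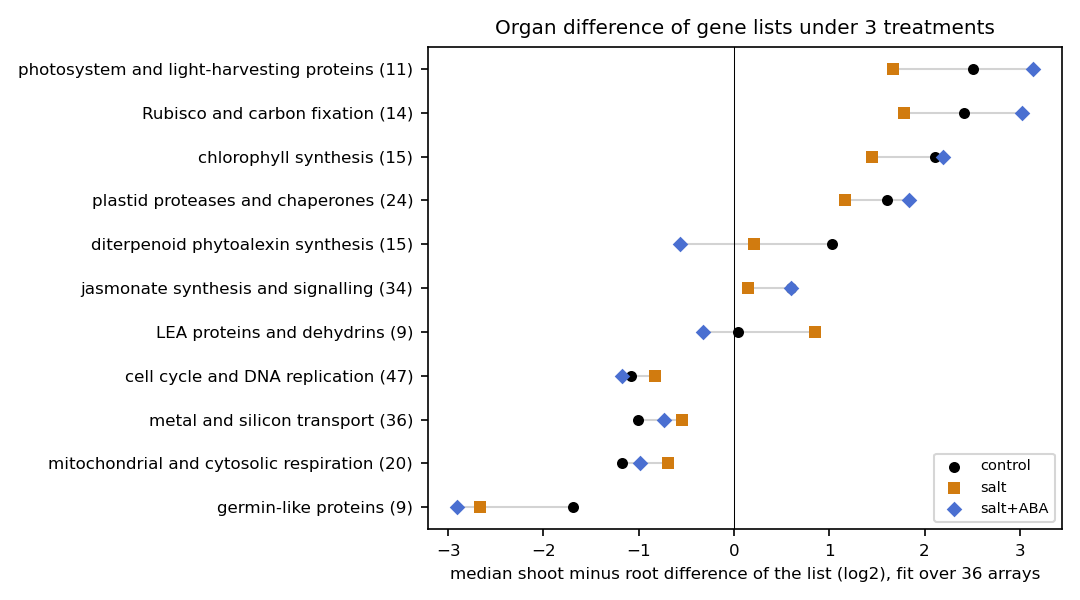
Median shoot minus root difference (log2) of 11 gene lists under the control (black circles), salt (orange squares) and salt+ABA (blue diamonds), from 1 fit over 36 arrays, with the number of genes in parentheses and no error bar. The phytoalexin list went from 1.03 under the control to 0.21 and -0.57, and for the jasmonate list the control circle lies under the salt+ABA diamond at 0.60.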

How the data were processed

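RNA of 12 control samples was hybridised to the Affymetrix rice array, and the deposited intensities are the authors' probe set summaries on a linear scale. The method of summary, background correction and normalization was not found in the labels or methods, and the array medians lay within a narrow range. Samples were grouped by the organ, line and treatment in their labels, and 0 columns were left unmapped. Values were quantile normalized over the arrays of a fit, 32 was added, and log2 taken. limma 3.58.1 (R 4.3.3) fitted organ with line as a covariate over 57258 probe sets with Benjamini-Hochberg adjustment. Lines were also fitted apart and as an interaction, and all 36 arrays as 12 groups for the treatment contrasts. Tables were handled in Python 3.11.15 with pandas 2.3.3. The scripts were tested on simulated data.

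Probe sets were named by the platform annotation, of which 22436 had 1 gene, 95 several and 34727 none, and symbols were taken by gene identifier from the RefSeq table of assembly ASM3414082v1. A gene was read from its probe set with the highest mean. Named genes were the 15 with the largest difference in each direction among called genes whose organs did not overlap, up to 4 of each list in each direction (3 were used), the organ isoforms, the markers, all genes called by line, and the 5 largest in each direction of each treatment contrast. The members and the gene lists were chosen with earlier results of these data known. Of the 247 genes named for the organ difference, 32 rest on probe sets that can share sequence with other genes.

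Alternatives were other scalings, added values of 8 and 128, a filter at 100, other covariates and tests, and leaving out arrays. Same-numbered arrays of the lines deviated together within each organ (correlation of deviations 0.59 to 0.737), but shoots and roots of 1 number did not (-0.0667 to 0.146), so that numbers pair the lines and not the organs. The p-values of the main fit measure the spread between these arrays and do not model that pairing of the lines. With the lines averaged within each number, the adjusted p from limma was 1.72e-05 for PIP2;7 in place of 7.79e-11. For SUS1 it was 0.0296 in place of 0.0011, and for the transporter ABCG45 1.27e-05 in place of 0.00669. Of the 240 called named genes, 2 then had an adjusted p of 0.05 or more.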

Additional observations from a re-analysis of the deposited data

Results flagged for a closer look

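For the 247 named genes, the highest and the lowest of the 6 arrays of an organ were set against the other 5. In 44 of 494 groups of 6 arrays (8.91%) the gap to the nearest other array exceeded the 95% critical value of Dixon's test. The test sets that gap against the group's range. Its critical value assumes 6 independent readings, of which about 1 in 20 groups would pass it. Here the arrays paired by number across the lines and the genes shared the same arrays, so that 8.91% cannot be compared with that rate. Of these groups 23 were of shoots and 21 of roots, and in 22 the array that stood apart was numbered 2.

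In shoots, 15 of the 23 were genes higher in roots for which PL177 array 2 was the highest. Among the named ones it read 77.7 for Lsi2, 427 for TIP2;1, 131 for Adh2, 82.7 for Nrat1 and 171 for ZIP1 (LOC4326394), where the other 5 shoot arrays reached at most 19.6, 38.5, 72.4, 39.8 and 111. Among those known by number it read 58.7 for LOC4349293, 129.5 for LOC4329797, 308 for LOC4350388, 351 for LOC4331301 and 419 for LOC4330226. It also read 77.9 for LOC4348182, 48.5 for LOC4329734, 324 for LOC4349331, 176 for LOC4342187 and 95.1 for LOC4335846. All 15 remained far below the root arrays, and the part of root material in this array was not tested.

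The other shoot arrays that stood apart were single ones. On IR64 array 1, CatB was low at 2682 and CPS1 low at 311, and FNR (LOC4342399) was high at 1974. On IR64 array 3, NAS1 was high at 62.9, Pht1;2 high at 35.2 and SDH1 high at 2299.9. On PL177 array 3, CAD8A was high at 166 and GER1 low at 869.

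In roots, IR64 array 2 was high for 3 genes of the shoots, with 67.4 for LTP2-B, 109 for LOC4325998 and 21.6 for 4CL2, and low for the kinase CIPK10 at 2419. PL177 array 2 was high for LOC4347709 at 70.2, YAB1 at 32.2 and CPD2 at 739. IR64 array 1 was low for Lsi2 at 8419, YSL15 at 729.6 and Pht1;2 at 442, all higher in roots, and high for BGLU27 at 176, LOX9 at 69.8 and ERF78 at 79.8. PL177 array 3 was high for LOC4330226 at 13171 and GER4 at 12882, and low for GDCSH at 114, MADS16 at 2417 and KS1 at 104. IR64 array 3 was low for SAPK9 at 2184 and SCS-beta at 6841, and PL177 array 1 for TUB1 at 5928.

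The organ difference differed between PL177 and IR64, by limma's interaction term, at 9 probe sets. PL177 minus IR64 was 3.87 for LOC4339940, 1.48 for LOC4337920, 1.08 for LOC4334975 and -3.50 for LOC4341335. Among probe sets with no gene named here it was 3.09 for a probe set that read 251 to 633 in IR64 roots and at most 23.8 in every other group. It was 2.36 for another, with 1187 to 1721 in PL177 shoots, 265 to 372 in PL177 roots and at most 35.4 in IR64. A further one had 2.13, with 118 to 163 in PL177 shoots and at most 7.12 elsewhere. The remaining ones had -1.03, with 40.2 to 55.9 in IR64 shoots and at most 8.96 elsewhere, and -2.07, with 133 to 240 in PL177 roots and at most 17.4 elsewhere.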

How the results depend on the processing

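All values here are counts of called probe sets unless said otherwise. Against a null of 2-fold (limma's treat) the organ difference gave 5948 calls in place of 9205, 4889 in place of 9086 for the organ difference in PL177 and 4813 in place of 8925 for the organ difference in IR64. Without the 2-fold threshold they were 33786, 25723 and 25496. Scaled on the hybridisation controls, an alternative chosen after seeing the data, the organ difference in PL177 gave 14238. The organ difference by line, 9 in the main fit, gave 25 with all 36 arrays in the fit, 3 with the larger value added before log2, 1 with treat and 1 among probe sets of at least 100 on 6 arrays. It gave 19 with the number within an organ as a random block and 23 with it as a fixed replicate block, both chosen after seeing the data, 5 with line and number as a replicate block, and 4 to 12 without each array in turn. The cause of these shifts was not tested. With the larger value added, the organ difference, salt minus control, gave 1255 in place of 2059 and the organ difference, salt+ABA minus control, 817 in place of 1497, and without the fold threshold 12338 and 13233. The gene lists: members higher in shoots and in roots went from 218 and 225 to 355 and 442 without the fold threshold. Leaving out each control array moved the organ difference between 9069 and 9336, PL177 between 8720 and 9269, IR64 between 8692 and 9092, salt minus control between 1866 and 2595, and salt+ABA minus control between 1418 and 1752. The replicate block of line and number gave 9219 for the organ difference, 2063 for salt and 1512 for salt+ABA. Under it only the organ difference by line, 5 in place of 9, moved by over 1.5 times. Equal-variance tests per probe set, the methods' t-test, gave 9207 at the unadjusted threshold and 9161 after Benjamini-Hochberg, and were not run for the line and treatment contrasts.

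Under the alternatives without the hybridisation controls, no called organ difference of a named gene changed direction, while the majority of calls turned from shoots to roots with scaling on the hybridisation controls. Of the organ differences of named genes under the alternatives, 6592 kept their side of the threshold, 64 fell below it, 17 came to pass it and 41 moved without a test, and of their line and treatment contrasts 601 kept it and 54 fell below it. VIT2, PDC1, MGD1 and RPS4 lost their call without single arrays. The medians of the nitrogen, phosphate, cellulose synthase, chitinase, YABBY and cytokinin lists changed sign among the scalings without the hybridisation controls. Without quantile normalization the median was -0.87 in place of -1.02 for metal transport and -0.93 in place of -1.09 for the cell cycle. It was -0.69 in place of -1.03 for tubulins and actins and -0.13 in place of -0.51 for metallothioneins. That of the photosystem list was 2.64 in place of 2.53. Scaled on these controls, 11 medians above 0 turned below it: iron, sugar transport, sucrose and starch, laccases, ABCG, BGLU, gibberellin, LEA, heat-shock, DREB and calcium kinases. The number of arrays limits the precision, and 31.2% of values below 32 give understated differences.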

Other observations

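Some gene families that the labelled organs do not name were measured as well. Of 7 metallothioneins, which bind metal ions, 2 were higher in roots and 1 in shoots. Of 28 heat-shock proteins and factors 5 were higher in shoots and 2 in roots, of 44 calcium-regulated kinases 8 and 3, of 10 ABCG and PDR transporters 3 and 2, and of 6 glutathione transferases 2 and 3, with medians between -0.51 for metallothioneins and 0.14 for the kinases. Over all genes the shares were 15% in shoots and 16.9% in roots. Of 1051 called genes with several probe sets, 10 had another probe set called in the opposite direction.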
